A study of Saccharomyces cerevisiae with 36 samples.

Results

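The transcript response of Saccharomyces cerevisiae without the MSN5 gene to loss of amino acids was read in total RNA, as the difference between starved and fed msn5 cultures. Every gene with a probe set on the series' arrays was a member: 5338 genes, each on the 2 starved and the 2 fed arrays of this strain, out of 36 arrays in 18 groups. Both groups were the msn5 deletion made in BY4742, a MATalpha laboratory strain that lacks working HIS3, LEU2, LYS2 and URA3 genes. Cells grew in synthetic defined medium at 30 °C to an OD600 of 0.35, and each culture was divided and pelleted. The starved share was kept for 30 min in the same medium without amino acids, and the fed share for as long with them. Cycloheximide, which stops ribosomes on messages, was added to both at 100 µg/ml before harvest, so that the controls carry it too. Wild-type BY4742 and its mtr10 deletion went through the same steps and serve here for comparison, as does polysome RNA of the msn5 cultures. The labels call the 2 arrays of a group biological replicates.

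Msn5 is a karyopherin, a carrier that takes cargo through the nuclear pore. It exports phosphorylated proteins, among them the transcription factors Pho4, Crz1 and Mig1 and the mating proteins Far1 and Ste5, and it returns charged tRNAs that have re-entered the nucleus to the cytoplasm. In yeast, loss of amino acids lets uncharged tRNA activate the kinase Gcn2, which lowers general translation and raises that of Gcn4, the activator of amino acid synthesis genes. Slower TORC1 signalling at the same time lowers ribosome production and releases genes for other nitrogen sources.

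Levels are log2 RMA values, on which 1 unit is 2-fold, and a change is the starved minus the fed level with the standard error of a fit over all 36 arrays. The call for a gene was an adjusted p below 0.05 (limma with Benjamini-Hochberg adjustment over 5338 genes). Array medians lay between 10.68 and 10.72, and 5331 of the genes were Present, which means detected above mismatch background, on all 4 msn5 arrays. Across genes the fed arrays correlated at 0.995 and the starved arrays at 0.986, against 0.864 to 0.887 between conditions. The starved arrays were the less alike, with 31 genes at least 2-fold apart between them, against 9 between the fed arrays. RMA gives every array the same distribution, so each change is relative to the other messages, and a loss of RNA common to all genes would not be seen.

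The deletion was seen on every msn5 array. MSN5 (YDR335W) read 3.70 and 3.93 in starved msn5 cells, against 4.26 and 4.05 in fed msn5 cells, and was Present on 0 of these 4 arrays. In wild-type it read 11.93 and 11.53 in starved cells, against 11.23 and 11.28 in fed cells. The MATalpha markers were high in fed msn5 cells, from 11.84 and 11.93 for SAG1, the alpha-agglutinin, to 13.14 and 13.11 for MF(ALPHA)1, which encodes alpha-factor. HIS3 kept signal and rose (1.06 ± 0.08), which checks nothing, since the allele of this strain is a partial deletion. LEU2, LYS2 and URA3 were not analysed here.

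In all 3258 genes changed (61.0%), of which 1540 rose (28.8%) and 1718 fell (32.2%). By at least 2-fold 384 rose (7.19%) and 331 fell (6.2%). The rises reached further than the falls: 82 genes rose and 10 fell at least 4-fold, and 28 rose and 3 fell at least 8-fold. The median change over all genes was -0.03, the median size 0.40, and 1512 of the called genes changed by less than 1.5-fold. Starved and fed arrays did not overlap in 84.4% of genes, so that this alone sets no gene apart. Genes that rose at least 2-fold had a median fed level of 9.79, while those that fell as far had 11.23. The names of 54 of the 384 and of 16 of the 331 were still locus names, without a gene name, against 434 of all 5338.

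**Figure D1:**
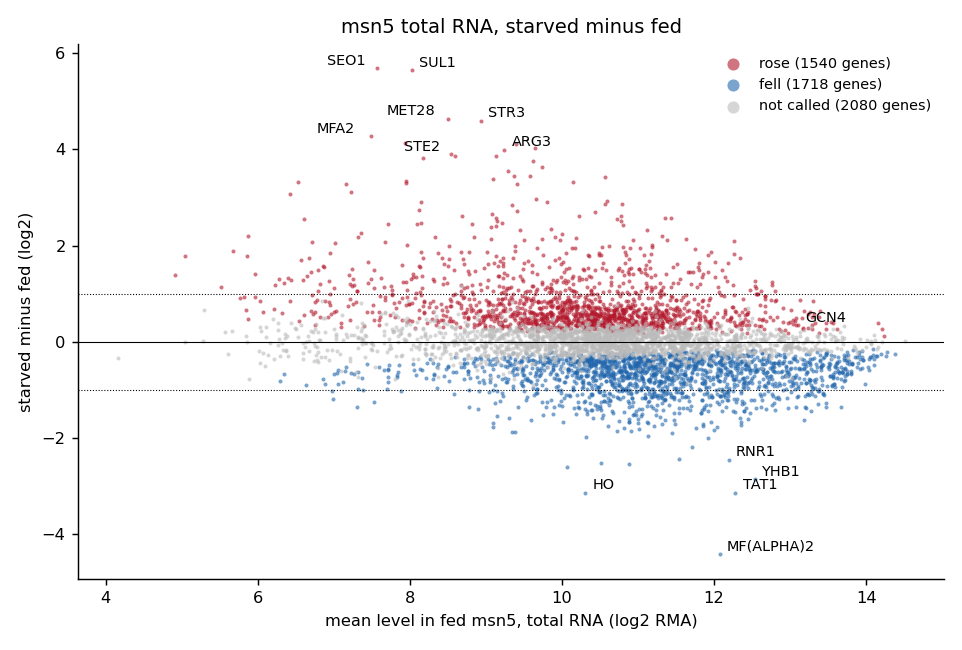
Change of each gene (starved minus fed, log2) against its mean level in fed msn5 cells (log2 RMA), 1 point per gene, with called rises and falls coloured and dotted lines at 2-fold. The 28 rises of at least 8-fold lie far above the 3 falls of that size.

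The sulfur network held most of the largest rises. SEO1, a putative permease of sulfur compounds, measured 13.18 and 13.33 in starved cells, against 7.53 and 7.62 in fed cells (51.5-fold). SUL1, the sulfate permease, measured 13.63 and 13.72 in starved cells, against 8.68 and 7.38 in fed cells, a rise of 5.65 ± 0.50. Its starved arrays agreed closely and the spread lay in the fed arrays, and the rise was 6.30 without fed replicate 1. SUL2, the other sulfate permease, measured 13.55 and 13.45 in starved cells, against 9.44 and 9.34 in fed cells (4.11 ± 0.29). In all of these permeases the starved levels approached the highest values of the arrays and the groups were far apart.

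All 10 genes of sulfate uptake and assimilation rose at least 2-fold, with a median change of 3.18. MET16, which reduces activated sulfate, rose by 3.45 ± 0.24. MET3, the ATP sulfurylase of the first step, measured 13.30 and 13.45 in starved cells, against 9.71 and 9.52 in fed cells (13.5-fold). MET1 and MET8 make the siroheme of sulfite reductase. MET1 rose by 3.43 ± 0.21 and MET8 by 2.61 ± 0.22. MET5 and MET10 encode the reductase itself, and MET5 rose by 2.57 ± 0.19 and MET10 by 2.93 ± 0.20.

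In methionine and cysteine synthesis 12 of 13 genes rose, with a median of 0.95, and 1 fell. In MAS5 signals, the other deposited version of these arrays, 7 rose. STR3, a cystathionine beta-lyase that leads from cysteine towards methionine, measured 13.49 and 13.56 in starved cells, against 9.10 and 8.76 in fed cells (24.1-fold). MHT1, which makes methionine from S-methylmethionine, rose by 3.87 ± 0.25, and MET2, which activates homoserine for the pathway, by 3.63 ± 0.29. Smaller rises were those of MET6, the methionine synthase, by 0.85 ± 0.08 (0.19 and not called in MAS5 signals), and of CYS4, the cystathionine beta-synthase, by 0.50 ± 0.08 (-0.07 in MAS5 signals). SAH1, which breaks down S-adenosylhomocysteine, fell by 0.68 ± 0.06.

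The regulators of these genes moved unequally. MET28, a cofactor of the activator Met4, measured 13.04 and 13.22 in starved cells, against 8.90 and 8.10 in fed cells (24.8-fold). MET32, one of the DNA-binding partners of Met4, rose by 4.13 ± 0.26, while its paralogue MET31 fell by 0.69 ± 0.13. MET30, the ubiquitin ligase subunit that restrains Met4, rose by 1.52 ± 0.15, and MET4 itself by 0.50 ± 0.12. CBF1, another DNA-binding partner, had a change of 0.22 ± 0.22 (adjusted p = 0.38). All 6 permeases of sulfur amino acids and their derivatives rose at least 2-fold, with a median of 3.18. Among them MMP1, for S-methylmethionine, rose by 4.02 ± 0.27, YCT1, for cysteine, by 3.86 ± 0.18, and MUP1, the high-affinity methionine permease, by 1.46 ± 0.15.

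**Figure D2:**
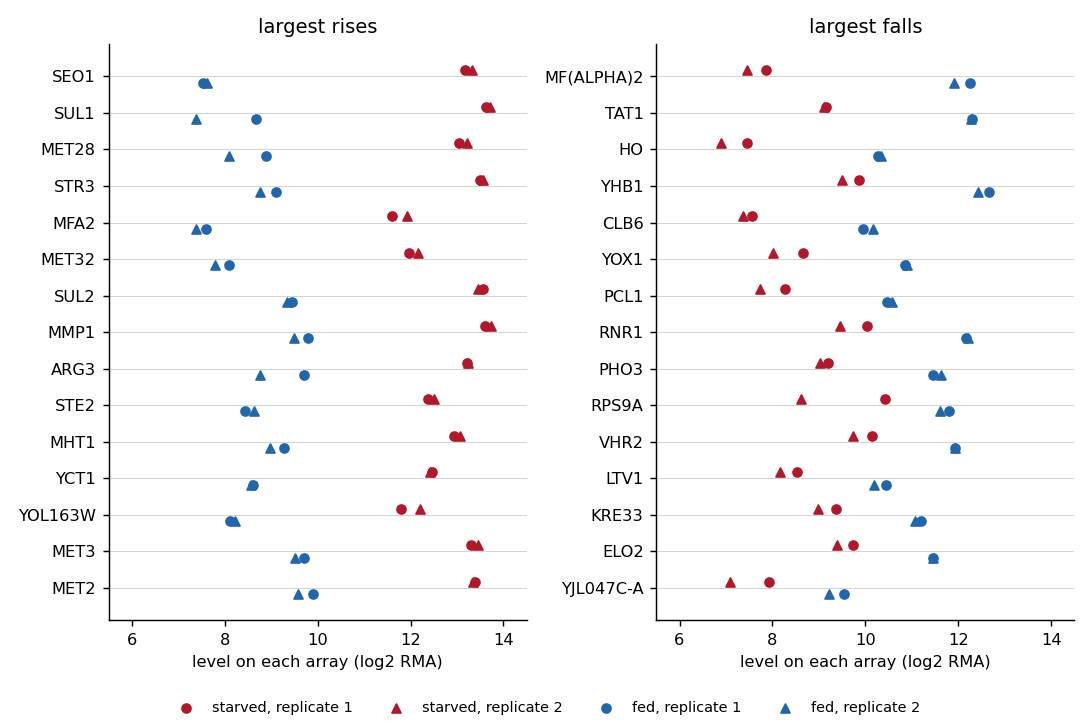
Level on each of the 4 msn5 arrays (log2 RMA) of the 15 genes with the largest rises and the 15 with the largest falls among called genes whose arrays do not overlap, starved above fed in each row. Fed replicates spread most for SUL1 and ARG3, and starved replicates most for RPS9A.

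Of the lists of amino acid synthesis, that of arginine had the highest median. All 8 measured genes rose at least 2-fold, with a median of 2.05, and the other genes of the list were not analysed here. ARG3, the ornithine carbamoyltransferase, measured 13.22 and 13.24 in starved cells, against 9.72 and 8.76 in fed cells. The starved arrays were alike and the fed arrays apart, and the rise was 3.99 ± 0.27. ARG8, an aminotransferase of the mitochondrial part of the route, rose by 2.42 ± 0.11, and CPA1, the small subunit of carbamoyl phosphate synthetase, by 1.65 ± 0.10. The 2 lowest changes of the list were those of CPA1 and ARG4 (1.74 ± 0.11), the argininosuccinate lyase.

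The other amino acid routes rose less. Of 6 histidine genes 5 rose, with a median of 1.20, HIS5 by 1.69 ± 0.15 and HIS4 by 1.63 ± 0.12, while HIS6 had a change of -0.08 ± 0.12 (adjusted p = 0.589). Of 7 lysine genes 6 rose, with a median of 0.95. LYS1, the last enzyme of that route, measured 13.71 and 13.83 in starved cells, against 11.74 and 11.52 in fed cells (4.41-fold). LYS20, a homocitrate synthase of the first step, rose by 1.46 ± 0.21, and LYS9 had a change of 0.20 ± 0.10 (adjusted p = 0.0958). Of 12 aromatic genes 10 rose and 1 fell, with a median of 0.59. TRP4 rose by 1.52 ± 0.11, TRP3 by 1.39 ± 0.13 and ARO3, one of the enzymes at the entry of the shikimate route, by 1.11 ± 0.08. ARO7, the chorismate mutase, fell by 0.30 ± 0.08. In MAS5 signals 6 aromatic genes rose and 1 fell.

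Branched-chain genes rose in 9 of 11 cases, 0 of them by 2-fold, with a median of 0.58. LEU4, which opens the leucine branch, averaged 14.01 ± 0.02 in starved cells and 13.13 ± 0.02 in fed cells (SD, n = 2 each), a rise of 0.88 ± 0.07 (0.10 in MAS5 signals, where it was not called). BAT2, the cytosolic aminotransferase, had a change of 0.02 ± 0.12 (adjusted p = 0.882). These calls depended on the signal version, since in MAS5 signals 3 rose and 1 fell, with a median of 0.03.

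Routes that share precursors with many others split. Of 12 serine, glycine and threonine genes 7 rose and 2 fell, and the median was 0.45 (-0.06 in MAS5 signals, where 5 rose and 5 fell). SER33 and SER3 encode the first enzyme of serine synthesis. SER33 measured 13.13 and 13.26 in starved cells, against 11.25 and 11.13 in fed cells (2.01 ± 0.13), and SER3 rose by 1.98 ± 0.19. SER2, the phosphatase of the last step, went the other way and fell by 0.86 ± 0.09, and 1 of the 2 falls was left without starved replicate 2 or fed replicate 1. HOM3, the aspartate kinase that feeds threonine and methionine, rose by 1.50 ± 0.09, while THR1 of the threonine branch had a change of -0.14 ± 0.10 (adjusted p = 0.217). In MAS5 signals THR1 was called as a fall (-0.47). Of 11 genes for glutamate, glutamine, asparagine, proline and alanine 7 rose and 3 fell, with a median of 0.27 (-0.22 in MAS5 signals, where 3 rose and 3 fell). GDH3, a glutamate dehydrogenase, rose by 1.81 ± 0.27 and ALT1, an alanine aminotransferase, by 1.34 ± 0.12. PRO1, the first enzyme of proline synthesis, fell by 0.99 ± 0.17.

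Transcripts of the Gcn2 and Gcn4 translational control route were read next, while the activity of the route was not measured. GCN4 measured 13.40 and 13.50 in starved cells, against 13.10 and 13.11 in fed cells (0.34 ± 0.10, adjusted p = 0.00588). Its change was -0.20 in MAS5 signals, and it was not called without starved replicate 2 (0.30). Of 12 genes of the Gcn2 pathway, eIF2 and eIF2B 9 fell and 2 rose, with a median of -0.38. SUI2, the eIF2 alpha subunit that Gcn2 phosphorylates, fell by 0.85 ± 0.14, and GCD1, an eIF2B subunit, by 0.77 ± 0.11. The other rise was that of GCN2 itself (0.38 ± 0.15), whose call was lost whichever of the 4 arrays was left out (0.32 to 0.43).

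Permeases outside the sulfur group rose and fell, where 28.8% of all genes rose and 32.2% fell. TAT1, a permease for tyrosine and branched-chain amino acids, is induced by external amino acids through the SPS sensor. It measured 9.16 and 9.12 in starved cells, against 12.29 and 12.27 in fed cells (8.83-fold lower), the second largest fall of all genes. Of the 8 measured SPS targets 3 fell and 2 rose: BAP3 fell by 0.80 ± 0.28 and TAT2 by 0.55 ± 0.14, while DIP5, for acidic amino acids, rose by 0.98 ± 0.12. AGP1, another target, had a change of 0.25 ± 0.18 (adjusted p = 0.241). The fall of BAP3 was not called without fed replicate 2 (-0.73), starved replicate 1 (-0.79) or starved replicate 2 (-0.82). Of 8 other amino acid permeases 7 rose, among them CAN1, for arginine, by 1.20 ± 0.14 and AGP3 by 2.74 ± 0.37. GAP1, the general permease, measured 13.14 and 13.58 in starved cells, against 12.05 and 11.96 in fed cells (1.35 ± 0.16).

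Genes under nitrogen catabolite repression, which are held low while a good nitrogen source is present, rose in 19 of 21 cases, 10 of them at least 2-fold. Their median was 0.96. MEP2, the high-affinity ammonium permease, measured 13.04 and 13.52 in starved cells, against 10.82 and 10.63 in fed cells (5.88-fold). DAL7, a malate synthase of the allantoin gene cluster, rose by 1.61 ± 0.12 and DUR3, a urea transporter, by 1.52 ± 0.10. DAL80, a GATA-type repressor of the group, rose by 3.33 ± 0.27, and GLN3, an activator of it from another list, by 1.63 ± 0.12. MEP3, the third ammonium permease, had a change of -0.27 ± 0.12 (adjusted p = 0.053). It was called with only the 4 compared arrays (adjusted p = 0.0303), in MAS5 signals (-0.38), with centred arrays (adjusted p = 0.04) and with the replicate block (adjusted p = 0.0186).

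Genes for the breakdown of amino acids split by substrate. PUT1, the first enzyme of proline use, measured 12.02 and 12.14 in starved cells, against 9.93 and 9.87 in fed cells (4.53-fold), and GCV1 of the glycine cleavage system rose by 1.56 ± 0.11. CHA1, which degrades serine and threonine and is induced by them, fell by 1.48 ± 0.19. CAR1, the arginase, measured 11.85 and 11.82 in starved cells, against 13.34 and 13.20 in fed cells, a fall by 1.44 ± 0.16. CAR2, the next enzyme of arginine use, fell by 1.13 ± 0.18. Of the 12 genes 7 rose and 3 fell, where 28.8% of all genes rose and 32.2% fell.

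Mating-type genes moved in opposite directions in this MATalpha strain. All 7 genes specific to MATa cells rose at least 2-fold, and their median was 2.91. MFA2, which encodes a-factor, measured 11.59 and 11.93 in starved cells, against 7.60 and 7.38 in fed cells (19.3-fold). STE2, the alpha-factor receptor, measured 12.37 and 12.51 in starved cells, against 8.45 and 8.64 in fed cells (14.9-fold). On both starved arrays these genes lay far above both fed arrays. In bulk RNA, a rise in every cell and a rise in a fraction of the cells cannot be told apart. MFA1, the other a-factor gene, was Present on both starved arrays and on 0 of the 2 fed arrays, and was at least 7.51-fold higher in starved cells (adjusted p = 1.59e-09), where the fed level used was the measured one, which stood above the lowest Present signal. AGA2, an agglutinin subunit, rose by 3.08 ± 0.31, ASG7 by 2.05 ± 0.20, STE6, the a-factor exporter, by 1.88 ± 0.18 and BAR1, a protease that degrades alpha-factor, by 1.58 ± 0.23.

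The largest fall of all genes was that of MF(ALPHA)2, the minor alpha-factor gene. It measured 7.86 and 7.45 in starved cells, against 12.25 and 11.90 in fed cells, a fall by 4.42 ± 0.19 or 21.4-fold. Of the 5 MATalpha-specific genes 4 fell, with a median of -0.57: SAG1 fell by 0.94 ± 0.14, MF(ALPHA)1 by 0.57 ± 0.08 and AFB1, which blocks a-factor, by 0.49 ± 0.08. STE3, the a-factor receptor, had a change of -0.14 ± 0.10 (adjusted p = 0.231). In MAS5 signals STE3 was called as a fall too (-0.30), and all 5 genes fell there. HO, the endonuclease that starts mating-type switching, is itself a cargo of Msn5. Its message measured 7.45 and 6.88 in starved cells, against 10.27 and 10.33 in fed cells (8.79-fold lower). The laboratory strain carries an inactive ho allele. SIR1, a silencing factor of the mating-type cassettes, rose by 0.85 ± 0.12, and TUP1, the co-repressor, fell by 0.70 ± 0.15. SIR2, SIR3 and SIR4, the other silencing factors, had changes of -0.19 (adjusted p = 0.168), -0.06 (adjusted p = 0.709) and 0.02 (adjusted p = 0.922).

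Pheromone response genes did not follow as a group. Of 15 measured 5 rose and 4 fell, where 28.8% of all genes rose and 32.2% fell. The falls were 0 without starved replicate 2, 1 without fed replicate 1, 1 without fed replicate 2 and 0 in MAS5 signals. PRM2 rose by 1.90 ± 0.21, PRM1 by 1.30 ± 0.17 and PRM5 by 1.05 ± 0.11. FUS1, a cell fusion gene, measured 9.94 and 10.26 in starved cells, against 9.25 and 9.36 in fed cells (0.79 ± 0.18). SST2, which damps pheromone signalling, rose by 0.65 ± 0.16, and STE12, the activator of these genes, had 10.22 and 10.21 in starved cells, against 10.60 and 10.72 in fed cells. The fall of STE12 (-0.45 ± 0.18) was not called when any 1 of the 4 arrays was left out (-0.39 to -0.50).

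**Figure D3:**
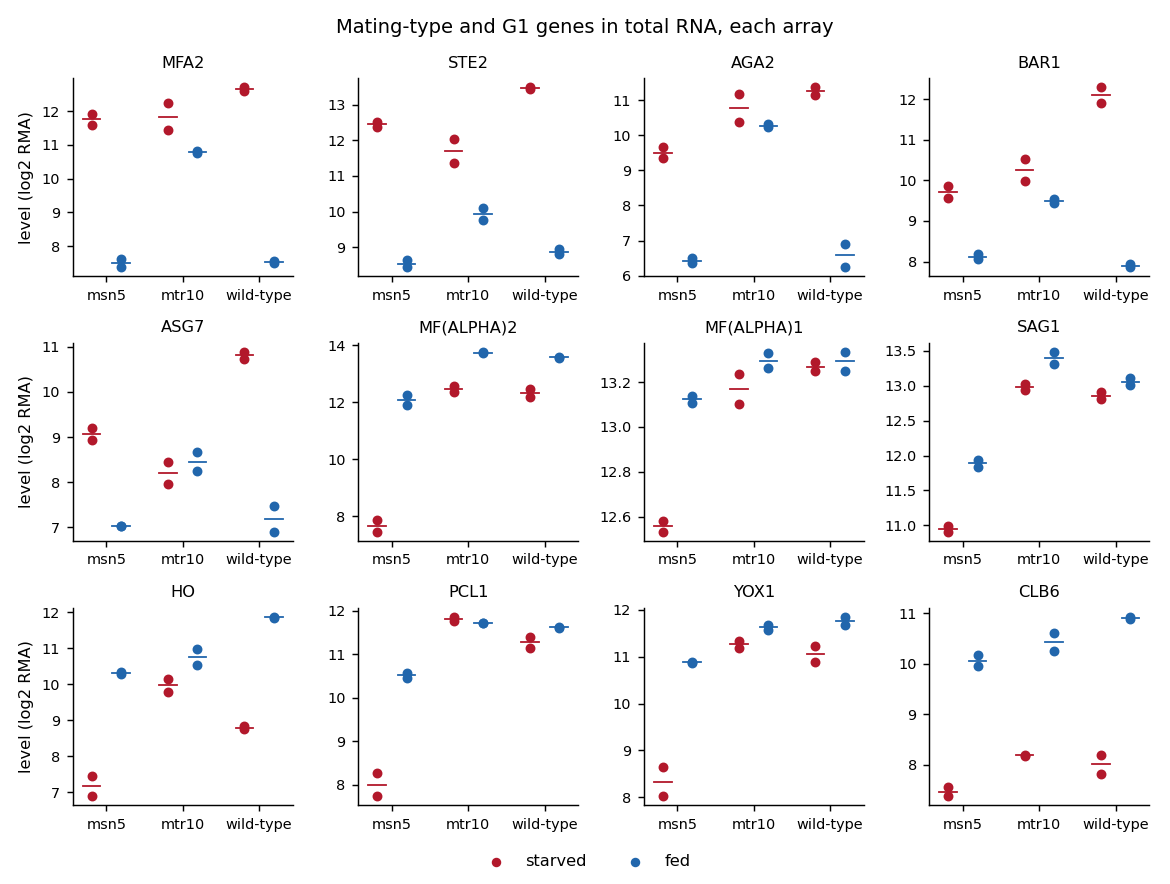
Level on each array (log2 RMA) of 12 mating-type and G1 genes in total RNA of msn5, mtr10 and wild-type, starved left of fed in each strain, with bars at the mean of 2 arrays. MF(ALPHA)2, PCL1 and YOX1 lie lowest in starved msn5, while BAR1 and ASG7 rise further in wild-type than in msn5.

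Genes of the phosphate regulon, which the Msn5 cargo Pho4 activates, changed little on starvation. Of 15 measured 3 rose and 1 fell, where 28.8% of all genes rose and 32.2% fell. The list's median was 0.24 (-0.04 in MAS5 signals, where 3 rose and 3 fell). The median was 0.07 on starved replicate 2 and 0.34 on starved replicate 1, each against the fed mean, and 14 of the 15 read lower on replicate 2. The 1 fall, of PHM6 (-1.14 ± 0.39), was not called without starved replicate 2 (-0.72) or without fed replicate 1 (-0.72). PHO84, the high-affinity phosphate transporter, measured 14.05 and 14.03 in starved cells, against 13.76 and 13.66 in fed cells, close to the highest value of any array, 14.61. Its change was 0.33 ± 0.54 (adjusted p = 0.606), but PHO84 was called as a rise with only the compared arrays in the fit (adjusted p = 0.019). PHO5, a secreted acid phosphatase, had 11.65 and 11.11 in starved cells, against 11.32 and 10.99 in fed cells, and these arrays overlapped. PHO89, a sodium-coupled phosphate transporter, measured 13.77 and 13.26 in starved cells, against 11.88 and 10.75 in fed cells, a rise of 2.20 ± 0.36. PHO8, the vacuolar phosphatase, rose by 0.72 ± 0.08 and GIT1, a glycerophosphoinositol transporter, by 0.75 ± 0.15. PHO3, an acid phosphatase repressed by thiamine and not by phosphate, measured 9.19 and 9.02 in starved cells, against 11.46 and 11.62 in fed cells (5.43-fold lower).

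Of the 12 genes of Msn5 cargo proteins 3 rose and 2 fell, HO included, where 28.8% of all genes rose and 32.2% fell. MIG1, a glucose repressor, rose by 1.02 ± 0.12 and CDH1, an activator of the anaphase-promoting complex, by 0.45 ± 0.09. PHO4 measured 11.37 and 11.40 in starved cells, against 10.24 and 10.52 in fed cells. Its change of 1.00 ± 0.43 was called (adjusted p = 0.0462), but not when any 1 of the 4 arrays was left out (0.86 to 1.15), and polysome RNA gave -0.01. FAR1, a cell cycle inhibitor of the mating response, had 10.74 and 10.75 in starved cells, against 11.05 and 11.18 in fed cells (-0.37 ± 0.14). Its fall was called only without fed replicate 1, of the fits with 1 array left out (-0.31 to -0.38 in the others). MSN2, MSN4, CRZ1, WHI5, SWI6, STE5 and AFT1 were not called, with changes between -0.73 for WHI5 and 0.53 for MSN4. MSN4 was called without starved replicate 1 (0.75), and both MSN4 and MSN2 were called in MAS5 signals (0.76 and 0.27) and with the replicate number as a block (adjusted p = 0.00678 and 0.0487). WHI5 was called with only the 4 compared arrays (adjusted p = 0.00604).

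Targets of 3 cargo factors, Crz1, Mig1 and Aft1, were counted in the same way, where 28.8% of all genes rose and 32.2% fell. Of 11 calcineurin and Crz1 genes 5 rose and 1 fell. GSC2, a glucan synthase, rose by 1.22 ± 0.15 and CMK2, a calmodulin kinase, by 0.71 ± 0.20. Without starved replicate 2 the rises were 3, and the 1 fall was not called without starved replicate 1 or fed replicate 1. Of 11 genes repressed by Mig1 6 rose, MAL33, a maltose activator, by 2.18 ± 0.18 and CAT8, the activator of gluconeogenesis, by 1.60 ± 0.16, whereas SUC2, the invertase, had a change of -0.15 ± 0.09 (adjusted p = 0.163). Iron uptake genes, activated by the cargo Aft1, rose in 8 of 25 cases and fell in 1, where 28.8% of all genes rose. The rises were 4 and the falls 4 without starved replicate 1, and the rises 4 without fed replicate 2, while the 1 fall was not called without starved replicate 2 or fed replicate 1. All 25 read lower on starved replicate 2 than on replicate 1. ISU1, an iron-sulfur scaffold, rose by 1.26 ± 0.10 and FRE2, a ferric reductase, by 1.42 ± 0.20.

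Reserve carbohydrate genes rose together. All 15 genes of trehalose and glycogen rose, 8 of them at least 2-fold, with a median of 1.22. GSY1, a glycogen synthase, measured 12.33 on both in starved cells, against 10.07 and 10.29 in fed cells (4.46-fold), and GLG1, the glycogenin that primes the chain, rose by 1.99 ± 0.13. TPS1, the trehalose phosphate synthase, rose by 0.36 ± 0.13 (-0.07 in MAS5 signals), and was not called without fed replicate 1 (0.27) or starved replicate 2 (0.30). Of the 15 rises 8 were called without starved replicate 2, 9 without fed replicate 1 and 9 in MAS5 signals. Starved replicate 2 read above replicate 1 in 14 of the 15.

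Of 32 genes of the general stress response, driven by Msn2 and Msn4, 18 rose and 14 were not called, with a median of 0.55. NQM1, a transaldolase, rose by 1.67 ± 0.18, RTN2, of the endoplasmic reticulum, by 1.62 ± 0.20 and YAK1, a kinase that slows growth, by 0.87 ± 0.09. HSP104, a disaggregase, had 11.90 and 12.11 in starved cells, against 12.17 and 12.39 in fed cells, and SPI1, a cell wall protein, had 12.09 and 12.41 in starved cells, against 12.29 and 12.59 in fed cells. Neither was called, but both were in MAS5 signals (-0.70 for HSP104 and -0.56 for SPI1), where 3 genes of the list fell, and HSP104 was also called with the replicate number as a block (adjusted p = 0.0435).

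Autophagy and vacuolar protease genes rose in 13 of 16 cases, with a median of 0.59. ATG1, the kinase that starts autophagy, measured 11.34 and 11.19 in starved cells, against 8.83 and 8.79 in fed cells (5.49-fold). ATG14 rose by 1.35 ± 0.16 and ATG8, which coats the autophagosome, by 0.69 ± 0.17. Without starved replicate 2 the rises were 8, and that of ATG8 was not called (0.42). PEP4, PRC1 and ATG5 were not called. PEP4 (0.24) was called with only the 4 compared arrays (adjusted p = 0.0489) and with the replicate block (adjusted p = 0.0417). Of 16 genes of beta-oxidation and carnitine transfer 14 rose, 8 at least 2-fold, with a median of 0.99. YAT2, a carnitine acetyltransferase, measured 12.95 and 12.73 in starved cells, against 9.52 and 9.06 in fed cells (11.7-fold). CRC1, the mitochondrial carnitine carrier, rose by 2.72 ± 0.16, CAT2 by 2.11 ± 0.09 and POX1, the acyl-CoA oxidase, by 1.74 ± 0.19.

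Cell cycle genes of the G1/S transition fell almost throughout. Of 25 targets of SBF and MBF, the factors that start the cycle, 24 fell, 11 of them at least 2-fold, and 0 rose. Their median was -0.95. CLB6, an S-phase cyclin, measured 7.56 and 7.37 in starved cells, against 9.95 and 10.17 in fed cells (6.04-fold lower). RNR1, the large subunit of ribonucleotide reductase, measured 10.04 and 9.45 in starved cells, against 12.18 and 12.20 in fed cells (5.45-fold lower). CDC21, the thymidylate synthase, fell by 1.82 ± 0.13. YOX1, a repressor of early cell cycle genes, measured 8.65 and 8.02 in starved cells, against 10.86 and 10.89 in fed cells (5.82-fold lower). PCL1, a G1 cyclin of the kinase Pho85, measured 8.26 and 7.73 in starved cells, against 10.46 and 10.57 in fed cells (5.72-fold lower). On YOX1, PCL1, RNR1 and HO starved replicate 2 was the lower one, and both starved arrays lay well below both fed arrays.

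Later stages of the cycle did not move in that way, where 28.8% of all genes rose and 32.2% fell. Of 12 genes of late M and early G1 2 rose and 0 fell, and 0 or 1 rose without each of the 4 arrays. Of 11 G2/M genes 3 rose and 5 fell, and 2 fell without starved replicate 2 and 3 without fed replicate 1 or fed replicate 2. The G2/M median was -0.13, against 0.06 in MAS5 signals. CLB2, a mitotic cyclin, fell by 0.90 ± 0.12, and DBF2, a mitotic exit kinase, rose by 0.57 ± 0.08. SIC1, the S-phase inhibitor, had 10.87 and 10.98 in starved cells, against 10.86 and 11.05 in fed cells, and these arrays overlapped. Histone genes had a median of 0.26, with 5 of 9 called above 0 and 1 below. In MAS5 signals their median was -0.11, with 0 above and 3 below, and without starved replicate 2 it was 2 and 2, so no direction is given for them.

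Ribosome assembly genes fell nearly as one. Of 48 small-subunit processome genes 47 fell, 30 of them at least 2-fold, with a median of -1.14, and of 49 large-subunit assembly genes 47 fell, 36 at least 2-fold, with a median of -1.15. UTP4, a processome subunit, measured 9.13 and 8.78 in starved cells, against 10.60 and 10.46 in fed cells (-1.58 ± 0.23). NOP7, of the large subunit, measured 10.08 and 9.47 in starved cells, against 11.56 and 11.40 in fed cells (-1.70 ± 0.28). LTV1, a small-subunit assembly factor, fell by 1.97 ± 0.34 and KRE33, an RNA acetyltransferase, by 1.96 ± 0.32. In 47 of the 48 and 46 of the 49 genes starved replicate 2 read lower than replicate 1, against 2824 of all 5338. The medians were -0.92 and -0.95 on replicate 1 and -1.34 and -1.34 on replicate 2, each against the fed mean. Without starved replicate 2 the falls were 38 of 48 and 45 of 49.

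Of 11 RNA polymerase I genes 9 fell, with a median of -0.85. RPA43 fell by 1.69 ± 0.26 and RPA190, the largest subunit, by 1.36 ± 0.29. RRN3, which ties the polymerase to growth, had 10.82 and 10.22 in starved cells, against 10.49 and 10.48 in fed cells, a change of 0.03 ± 0.25 (adjusted p = 0.922). All 11 read lower on starved replicate 2 than on replicate 1, and 5 fell without it. Of 22 RNA polymerase III genes 13 fell and 2 rose. RPC31 fell by 1.75 ± 0.20, while TFC3, a subunit of the initiation factor TFIIIC, rose by 0.46 ± 0.13 and MAF1, the repressor of this polymerase, by 0.25 ± 0.09. In MAS5 signals 0 of these genes rose, and MAF1 was not called without fed replicate 2 (0.22) or starved replicate 2 (0.19).

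Cytosolic ribosomal protein genes fell in 117 of 126 cases, with a median of -0.58, 18 of them at least 2-fold. Here the 2 starved arrays differed: 124 of the 126 genes read lower on replicate 2, with a median of -0.37 on replicate 1 and -0.77 on replicate 2. Without starved replicate 2 the number called was 58, and without each of the other arrays it was 99 to 120. RPS9A measured 10.43 and 8.62 in starved cells, against 11.80 and 11.62 in fed cells, a fall by 2.18 ± 0.46 (-1.28 without starved replicate 2 and -3.09 without starved replicate 1). RPL12A, of the stalk base, measured 11.78 and 11.36 in starved cells, against 13.23 and 13.15 in fed cells (-1.62 ± 0.19). RPL3 had 14.10 and 13.99 in starved cells, against 14.03 and 13.99 in fed cells, and was not called. In polysome RNA of the same strain the list's median was -0.81. Many of these genes are near-identical pairs, and probe sets could read both copies.

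Translation factor genes and mitochondrial ribosomal protein genes fell as well. Of 28 translation factor genes 26 fell, 7 at least 2-fold, with a median of -0.71. TIF5, encoding eIF5, measured 11.15 and 10.92 in starved cells, against 12.42 on both in fed cells (-1.38 ± 0.12), and CDC33, the cap-binding eIF4E, fell by 1.04 ± 0.10. Among 20 genes of aminoacyl-tRNA synthetases 9 fell, 1 rose and 10 were not called, where 32.2% of all genes fell and 28.8% rose. Their median was -0.24, and 17 fell in MAS5 signals. SES1, for serine, fell by 0.86 ± 0.08, and KRS1, for lysine, rose by 0.26 ± 0.08 (-0.12 in MAS5 signals, and not called without fed replicate 2, at 0.23). In the mitochondrial ribosome 50 of 71 protein genes fell and 2 rose, with a median of -0.46, and 1 rose without starved replicate 2 or fed replicate 1.

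More of the genes of tRNA maturation and traffic fell than rose, where 32.2% of all genes fell and 28.8% rose. The wild-type medians were below 0 too, at -1.25 for tRNA modification. For tRNA nuclear transport and karyopherins the median was -0.37 in wild-type and -0.27 in msn5. For 0 genes of these lists was the difference from the wild-type response called. Of 25 tRNA modification genes 21 fell, with a median of -0.77. The median was -0.95 on starved replicate 2 and -0.59 on starved replicate 1, 24 of the 25 read lower on replicate 2, and 17 fell without it. DUS3, a dihydrouridine synthase, fell by 1.66 ± 0.24 and TRM10, a methyltransferase, by 1.23 ± 0.14. Of 19 processing and splicing genes 11 fell and 1 rose. SEN34, a subunit of the splicing endonuclease, measured 9.43 and 9.21 in starved cells, against 10.69 and 10.55 in fed cells (-1.30 ± 0.14). POP1, a subunit of RNase P, was the rise, with 12.45 and 12.56 in starved cells, against 11.16 and 11.07 in fed cells (1.39 ± 0.12). Of 19 genes of tRNA nuclear transport and karyopherins 8 fell and 0 rose, among them KAP123, an importer of ribosomal proteins, by 1.44 ± 0.25 and UTP8, a nucleolar factor of tRNA export, by 1.16 ± 0.26. Of 9 genes of the Ran cycle, which gives karyopherins their direction, 7 fell, SRM1, the Ran exchange factor, by 1.09 ± 0.11 and GSP1, Ran itself, by 0.57 ± 0.09.

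Nucleotide and vitamin genes split by product, where 28.8% of all genes rose and 32.2% fell. Of 10 purine synthesis genes 6 rose, ADE17 by 1.14 ± 0.12 and ADE12 by 1.08 ± 0.08. These calls depended on the signal version, since in MAS5 signals 2 rose, and the median was 0.13 there against 0.49. Of 12 genes of GMP synthesis and purine salvage 9 fell and 1 rose, with a median of -1.04. IMD3, an IMP dehydrogenase, measured 11.28 and 11.37 in starved cells, against 12.51 and 12.55 in fed cells (-1.20 ± 0.14). IMD2 fell by 1.87 ± 0.18, but by its name this probe set may share probes with other genes. Of 9 pyrimidine genes 6 fell and 1 rose: URA5 fell by 0.89 ± 0.08, while its paralogue URA10 rose by 1.74 ± 0.14. URA1 measured 10.98 and 13.16 in starved cells, against 13.43 and 13.30 in fed cells. Its starved arrays stood far apart, and its change of -1.30 ± 0.53 was -0.21 without starved replicate 1 and -2.39 without starved replicate 2, and not called without fed replicate 1 (-1.23) or fed replicate 2 (-1.36). Of 13 genes of vitamin B6, biotin and NAD 11 rose, with a median of 1.50. BIO3, of biotin synthesis, rose by 2.41 ± 0.10, VHT1, the biotin transporter, by 2.11 ± 0.12 and BNA3 by 1.86 ± 0.11.

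Chaperone and proteasome genes fell. Of 26 chaperone genes 18 fell, 7 at least 2-fold, and 2 rose, with a median of -0.63. CPR6, an Hsp90 co-chaperone, fell by 1.43 ± 0.10 and HSC82, an Hsp90, by 1.03 ± 0.12. HSP78, a mitochondrial disaggregase, rose by 0.96 ± 0.12. Of 33 proteasome genes 28 fell, 0 of them by 2-fold, with a median of -0.43. The 1 rise was that of RPN4 (0.54 ± 0.10), the transcription factor that activates proteasome genes.

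Carbon metabolism moved mildly, where 28.8% of all genes rose and 32.2% fell. Of 15 glycolysis genes 9 fell and 0 rose, with a median of -0.25. The falls were 4 without starved replicate 1 and 14 in MAS5 signals. ENO2, an enolase, averaged 13.11 ± 0.01 in starved cells and 13.98 ± 0.03 in fed cells (SD, n = 2 each), a fall by 0.87 ± 0.07, and TDH3 had 14.52 and 14.55 in starved cells, against 14.54 and 14.49 in fed cells. Of 16 TCA cycle genes 7 rose, with a median of 0.19 (-0.05 in MAS5 signals, where 3 rose and 4 fell). CIT3, a mitochondrial citrate synthase, rose by 2.45 ± 0.23. MTH1, a repressor of hexose transporter genes, rose by 1.74 ± 0.18. Of 33 genes of the respiratory chain and ATP synthase 8 rose and 6 fell, with a median of -0.02. Without fed replicate 1 these were 4 and 3, without starved replicate 2 the rises were 5, and in MAS5 signals 3 rose and 12 fell.

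The remaining lists moved little or in both directions, where 28.8% of all genes rose and 32.2% fell. Of 22 ergosterol genes 7 fell and 2 rose, MVD1 by -0.79 ± 0.09 and ERG7 by 0.52 ± 0.08, and in MAS5 signals 14 fell and 0 rose. Of 13 phospholipid genes 6 fell and 3 rose, and without fed replicate 2 the falls were 3. CHO1, the phosphatidylserine synthase, fell by 0.76 ± 0.08 and INO1, which makes inositol phosphate, rose by 0.58 ± 0.18, a rise not called without fed replicate 1 (0.53) or starved replicate 1 (0.30). Of 8 polyamine genes 4 fell, SPE4, the spermine synthase, by 0.82 ± 0.10. Of 12 genes of the unfolded protein response 5 fell and 0 rose, KAR2, the chaperone of the endoplasmic reticulum, by 0.61 ± 0.11. Of 9 retrograde response genes 5 rose, RTG3, an activator of the route, by 1.19 ± 0.12, and in MAS5 signals 2 rose and 1 fell. Of 20 genes of TORC1 and Snf1 signalling 8 rose and 2 fell, and the rises were 5 without starved replicate 2 and the falls 1 without fed replicate 1 or fed replicate 2. NPR2, which restrains TORC1 when nitrogen is short, rose by 0.82 ± 0.09, and SCH9, a kinase downstream of TORC1, fell by 0.25 ± 0.10, a fall not called without fed replicate 1 (-0.21), fed replicate 2 (-0.29) or starved replicate 2 (-0.17).

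**Figure D4:**
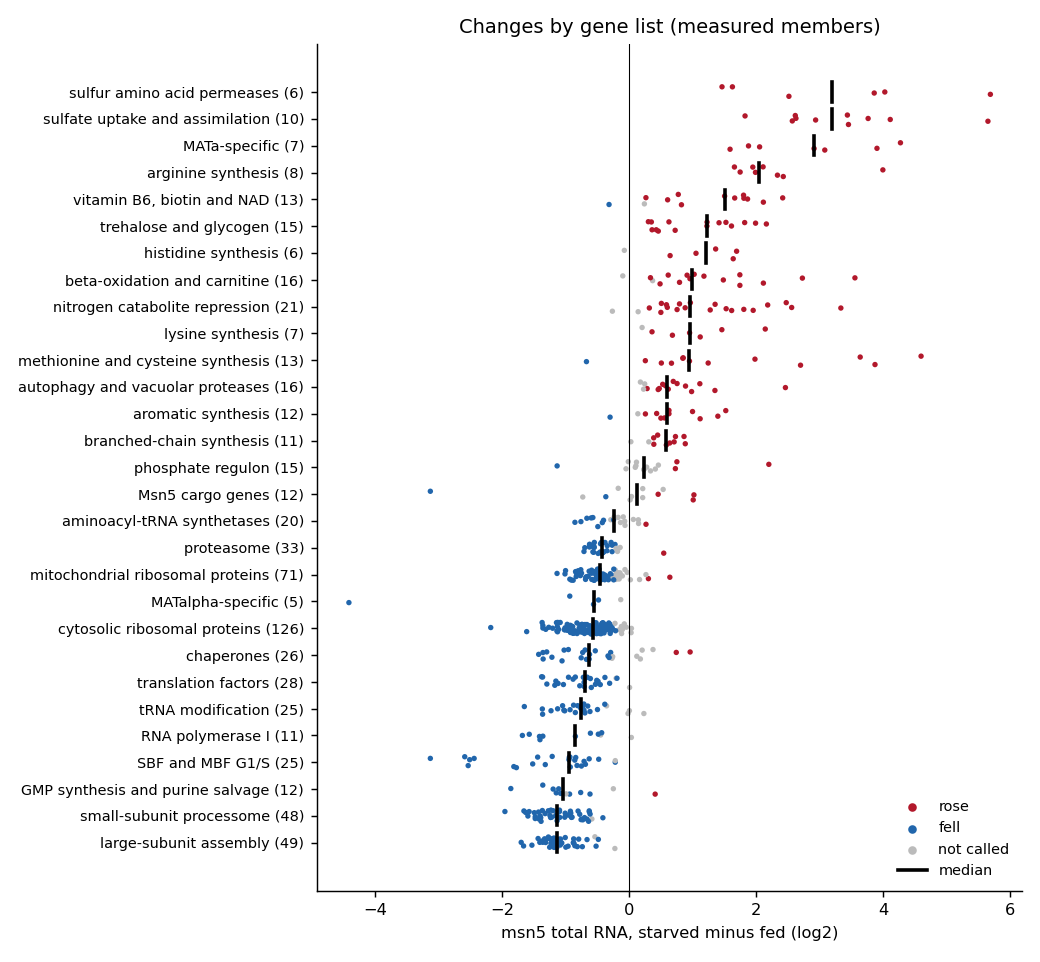
Change of each measured member of 29 gene lists in msn5 total RNA (starved minus fed, log2), 1 point per gene, with a bar at the median and the number of measured members in brackets. The 29 lists run from a median of 3.18 at the top to -1.15 at the bottom.

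Some of the 15 largest changes in each direction lay outside these lists. YHB1, which detoxifies nitric oxide, measured 9.87 and 9.49 in starved cells, against 12.66 and 12.42 in fed cells (7.25-fold lower). VHR2, a transcription factor, fell by 1.99 ± 0.18 and ELO2, a fatty acid elongase, by 1.89 ± 0.16. YOL163W, a putative transporter, measured 11.80 and 12.20 in starved cells, against 8.10 and 8.23 in fed cells (3.83 ± 0.44). YJL047C-A, a small open reading frame of unknown role, fell by 1.87 ± 0.32.

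Polysome RNA of the same strain, read on 4 other arrays, was changed in most of the same genes. There 66.8% of genes were called, and of the 3258 genes called in total RNA 2905 were called in the same direction and 2 in the opposite one. Of the 715 genes changed at least 2-fold in total RNA 714 had the same sign. The median change of the 384 rises was 1.45 in total RNA and 1.56 in polysome RNA, and that of the 331 falls -1.22 and -1.44.

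The msn5 response was then set against those of the other strains, with which it shares no array. Over the 384 genes that rose at least 2-fold in msn5 the median rise was 1.45 in msn5, 0.95 in mtr10 and 1.63 in wild-type. Over the 331 falls it was -1.22 in msn5, -1.11 in mtr10 and -1.51 in wild-type. These genes were chosen on the msn5 values, so the medians are a description. The test of the difference between responses called 37 genes against wild-type (0.693%), 8 with a higher change in msn5 (0.15%) and 29 with a lower one (0.543%). In 18 of the 37 the change was above 0 in both strains and smaller in msn5, and in 8 it was below 0 in both and larger in msn5. The count was 7 when only the 8 arrays compared were fitted. It was 10 in the MAS5 alternative, which also left out 2 of the 4 wild-type arrays and kept 1 for each wild-type condition, so the signal and the loss of arrays cannot be told apart there. The genes with a higher change in msn5 were 0 in both of these settings. The count was 33 without msn5 starved replicate 1, and between 15 and 57 without any other of the 8 arrays, the lowest without wild-type fed replicate 2 and the highest without wild-type starved replicate 2. Against mtr10 it called 416 genes (7.79%), 211 higher (3.95%) and 205 lower (3.84%). Leaving out any 1 of those 8 arrays lowered that count to between 200.0 and 272, the lowest without mtr10 starved replicate 2.

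A few mating and G1 genes led the differences from wild-type. MF(ALPHA)2 measured 12.16 and 12.44 in starved wild-type, against 13.58 and 13.56 in fed wild-type, a change of -1.26 where msn5 gave -4.42. The difference of responses was -3.15 ± 0.27 (adjusted p = 2.61e-07). PCL1 measured 11.39 and 11.15 in starved wild-type, against 11.60 and 11.64 in fed wild-type, and its responses differed by -2.17 ± 0.28 (adjusted p = 0.000108). YOX1 had a change of -0.71 in wild-type and a difference of -1.83 ± 0.27 (adjusted p = 0.000554), which was not called with only the 8 compared arrays (adjusted p = 0.0755) or in MAS5 signals (-1.37, adjusted p = 0.171). In these genes the change was further below 0 in msn5. Over the 25 targets of SBF and MBF the median change was -0.95 in msn5 and -0.98 in wild-type. The difference was called as lower in msn5 for 2 of the 25 and as higher for 0. BAR1 and ASG7 of the MATa group rose in both strains, less in msn5. The difference was -2.62 ± 0.33 for BAR1 (adjusted p = 0.000108) and -1.58 ± 0.28 for ASG7 (adjusted p = 0.00528). That of ASG7 was not called without wild-type fed replicate 1 (-1.29), with only the 8 compared arrays (adjusted p = 0.08) or in MAS5 signals (-1.41, adjusted p = 0.333). The other 5 MATa genes had wild-type changes between 2.65 for STE6 and 5.13 for MFA2, each above its msn5 change, and for 0 of them was the difference called.

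Genes outside the mating and G1 groups differed as well. CRC1 measured 12.37 and 12.62 in starved wild-type, against 7.83 and 8.08 in fed wild-type. Its starved levels were close to those of msn5, and its fed levels were lower than in msn5, and the difference of responses was -1.82 ± 0.23 (adjusted p = 0.000108). CAR2, which fell in msn5, had a change of 0.28 in wild-type, with a difference of -1.41 ± 0.26 (adjusted p = 0.00775). It was not called without wild-type fed replicate 1 (-1.28), msn5 fed replicate 1 (-1.34) or msn5 starved replicate 2 (-1.20), with only the 8 compared arrays (adjusted p = 0.0736) or in MAS5 signals (-1.53, adjusted p = 0.122). PHO8 was the 1 gene of the phosphate regulon among the 37, with a change of 1.53 in wild-type and a difference of -0.81 ± 0.12 (adjusted p = 0.000554). SSA1, a cytosolic Hsp70, measured 12.23 and 12.50 in starved msn5, against 13.30 and 13.56 in fed msn5, and 11.09 and 10.94 in starved wild-type, against 13.19 and 13.55 in fed wild-type. It fell less in msn5, with a difference of 1.29 ± 0.26 (adjusted p = 0.0177). RIO1, a kinase of ribosome assembly, and AHA1, an Hsp90 activator, also fell less in msn5, by 0.95 ± 0.21 (adjusted p = 0.0394) and 0.80 ± 0.19 (adjusted p = 0.0471). In msn5 itself the fall of RIO1 was not called without fed replicate 2 (-0.40) or starved replicate 1 (-0.31). Each of these 3 differences between strains lost its call without at least 4 of the 8 arrays taken singly, with differences of 1.12 to 1.22 for SSA1, 0.82 to 1.02 for RIO1 and 0.68 to 0.89 for AHA1.

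**Figure D5:**
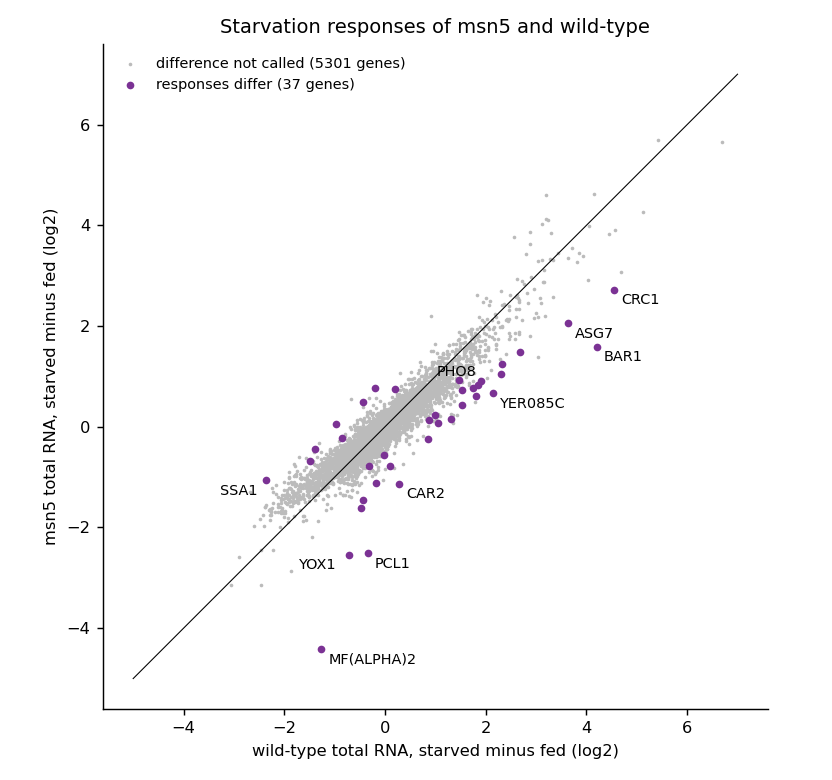
Change of each gene on starvation in msn5 (vertical axis) against wild-type (horizontal axis), both starved minus fed in total RNA (log2), 1 point per gene, with the line of equal change. The 37 genes whose responses differ are coloured, and MF(ALPHA)2, PCL1 and YOX1 lie far below the line.

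The differences from mtr10 were led by mating genes too. Among the 7 MATa genes 5 had a higher change in msn5 and 0 a lower one, against 0 and 12 of the 25 G1/S genes and 5 and 0 of the 15 pheromone response genes. MFA2 measured 11.43 and 12.24 in starved mtr10, against 10.81 and 10.76 in fed mtr10, so that both strains had like starved levels and the fed level was lower in msn5. The difference of responses was 3.22 ± 0.46 (adjusted p = 0.000126), and those of AGA2, MFA1 and PRR2, a kinase, were 2.58 ± 0.43 (adjusted p = 0.000819), 2.55 ± 0.34 (adjusted p = 6.07e-05) and 2.51 ± 0.25 (adjusted p = 1.75e-06). HO fell by 0.79 on the log2 scale in mtr10, a difference of -2.35 ± 0.34 (adjusted p = 0.000141). PCL1 read 11.86 and 11.77 in starved mtr10, against 11.71 and 11.72 in fed mtr10, without the fall seen in msn5 (-2.62 ± 0.28, adjusted p = 2.98e-06). YOX1 differed by -2.18 ± 0.27 (adjusted p = 2.4e-05) and MF(ALPHA)2 by -3.14 ± 0.27 (adjusted p = 1.43e-07). Of the 37 genes that differed from wild-type 12 also differed from mtr10 in the same direction.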

How the data were processed

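Total RNA of msn5 cultures was labelled with biotin and hybridised to Affymetrix yeast arrays, 1 per sample. The authors deposited log2 RMA values for 5684 probe sets, and MAS5 signal intensity with a detection p-value for 10928. RMA and affy are named in the submitters' processing notes, with no version (not given in the sources used here). Probe sets were named through the platform annotation and the RefSeq gene table: 5379 had 1 gene, 12 symbols were updated, 95 were controls and 210 others had no gene. Where a gene had several probe sets (39 genes), that of highest mean level stood for it, for 5338 genes in all. Genes had to be Present on both arrays of at least 1 of the 18 groups, which removed 0 genes.

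Group means of all 18 groups were fitted to the RMA values of 36 arrays (limma 3.58.1, R 4.3.3; 18 residual degrees of freedom), with contrasts, moderated two-sided tests and Benjamini-Hochberg adjustment over all genes. The fit pools the spread of 18 groups of 2, which limits precision for any 1 of them. The labels call the arrays of a group biological replicates without naming separate cultures, so p-values measure the spread between these samples. Scripts were tested on simulated data.

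The MAS5 means of the 4 arrays were 577 and 575 in starved and 607 and 591 in fed cells. A gene was Present at a detection p-value under 0.05. A pair of MAS5 columns, wild-type fed and wild-type starved, matched the RMA values of the other condition and was left out of the MAS5 alternative.

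Named genes were MSN5, GCN4 and the strain's marker genes, the 15 largest called changes in each direction without overlap of arrays, members of lists of up to 16 measured genes, up to 4 genes in each direction of longer lists, the 8 largest called differences in each direction from wild-type and 4 from mtr10, and the genes of Msn5 cargo. The members, the lists (70) and the tests were chosen with earlier results of these data known. Alternatives covered the arrays fitted, MAS5 signals, centring, filters, probe sets, the variance model, a replicate block and leaving out each array. Sequences are not printed because the tables used here hold none.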

Additional observations from a re-analysis of the deposited data

Results flagged for a closer look

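The genes below drew attention because a test of the difference between strains in their response to starvation passed the threshold. Values are the msn5 change minus the change in the other strain, on the log2 scale (limma, Benjamini-Hochberg adjusted). Against wild-type the 8 largest with a lower change in msn5 were MF(ALPHA)2 (-3.15), BAR1 (-2.62), PCL1 (-2.17), YOX1 (-1.83), CRC1 (-1.82), ASG7 (-1.58), YER085C (-1.47) and CAR2 (-1.41). YER085C, an open reading frame without a gene name, measured 6.66 and 6.36 in starved msn5, against 5.79 and 5.89 in fed msn5, and 8.37 and 8.07 in starved wild-type, against 5.93 and 6.23 in fed wild-type.

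The 8 with a higher change in msn5 were smaller, and with only the compared arrays, or in MAS5 signals with 2 wild-type arrays left out, 0 genes were called in this direction: SSA1 (1.29), YBL055C (1.03), CSR2 (0.98), RIO1 (0.95), RAD28 (0.92), AHA1 (0.80), CWC2 (0.63) and ERF2 (0.54). CSR2, a factor in ubiquitination of permeases, measured 9.97 and 9.95 in starved msn5, against 9.22 and 9.15 in fed msn5, and had a change of -0.20 in wild-type. YBL055C had 10.56 and 10.64 in starved msn5, against 10.65 and 10.44 in fed msn5, and a change of -0.97 in wild-type. RAD28, CWC2 and ERF2 had changes of 0.49, -0.22 and 0.74 in msn5 and of -0.43, -0.85 and 0.20 in wild-type.

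Against mtr10 the largest differences were those of MFA2 (3.22), AGA2 (2.58), MFA1 (2.55) and PRR2 (2.51) with a higher change in msn5, and of MF(ALPHA)2 (-3.14), PCL1 (-2.62), HO (-2.35) and YOX1 (-2.18) with a lower one. PRR2 measured 7.97 and 8.06 in starved msn5, against 6.53 and 6.76 in fed msn5, and 7.65 and 7.76 in starved mtr10, against 8.80 and 8.87 in fed mtr10. MF(ALPHA)2, PCL1 and YOX1 stand in both sets.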

How the results depend on the processing

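The count of called msn5 genes was 3258, and 2606 to 3520 under every alternative tried, all within 1.5 times. It was lowest without starved replicate 2 (1284 rose, 1322 fell), and in MAS5 signals it was 3203, of which 2757 kept their gene and direction. The 37 differences from wild-type depended on the processing: 7 with only the compared arrays, 10 in MAS5 signals with 1 column left for each wild-type condition, 25 with trend and robust settings, 49 with centred arrays and 15 to 57 with 1 array left out. Of the 16 of them named by size 12 lost their call under at least 1 alternative, while MF(ALPHA)2, BAR1, PCL1 and CRC1 kept it under all. The 416 differences from mtr10 became 612 with only the compared arrays fitted, and 316 in MAS5 signals without the mismatched wild-type columns. In the other settings without a block or a left-out array they were 412 to 417. With 1 array left out they were 200.0 to 272. The 8 named ones kept their call under all.

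With the replicate number as a block the counts were 3520 for msn5, 56 against wild-type and 623 against mtr10. The labels do not say that a number pairs samples, and the replicate differences of starved and fed arrays correlated at 0.275 in msn5, 0.239 in mtr10 and 0.178 in wild-type, with 2 pairs in each.

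In MAS5 signals the medians of 10 of the 70 lists changed sign, against 0 when RMA arrays were centred, and so did the changes of CYS4 (-0.0685), GCN4 (-0.20), KRS1 (-0.12), TPS1 (-0.0718), BAT2 (-0.39), RPL3 (-0.49), SIC1 (0.44) and TDH3 (-0.47). The cause was not tested. Arrays do not give depth, and their number, 2 in each group, limits the precision.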
